A study of Mus musculus with 4 samples.

Results

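The inhibin, activin and follistatin system of the mouse ovary was followed through 9 genes, taken by symbol from the 32285 genes of the deposited matrices. They are the subunit genes Inha, Inhba and Inhbb, the activin-binding protein genes Fst and Fstl3, the receptor genes Acvr2a, Acvr2b and Acvr1b, and the co-receptor gene Tgfbr3. The alpha subunit (Inha) pairs with a beta subunit (Inhba or Inhbb) to form inhibin A or B, and beta subunits pair with each other to form activins. Activin binds a type II receptor (ACVR2A or ACVR2B), which recruits the type I receptor ACVR1B and leads to phosphorylation of SMAD2 and SMAD3. Inhibin competes for the type II receptors with the help of betaglycan (Tgfbr3), and follistatin (Fst) and follistatin-like 3 (Fstl3) bind activin outside the cell. In the ovary, granulosa cells of growing follicles are the known main source of inhibin, which lowers FSH secretion by the pituitary, while activin and follistatin act within the follicle.

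Ovaries came from 4 groups of prepubertal mice at postnatal day 25, and each group gave 1 single-cell RNA library. Control mice received PBS/saline, the doxorubicin group received the drug at 3 mg/kg in 2 weekly doses, the doxorubicin+AMH group received the same drug together with recombinant human anti-Müllerian hormone (AMH, 0.75 mg/kg), and the AMH group received only the hormone at 0.75 mg/kg. Doxorubicin is a chemotherapy drug that damages DNA, and AMH is a granulosa cell hormone that restrains follicle growth; the series' title puts the question of whether AMH protects the ovary from the drug. All tissue was taken 4 h after the last dose, and each library pooled 1 ovary per animal from 5 animals. Treatment and library therefore cannot be told apart, no test between groups is possible, and every interval below is a 95% interval for counting error only.

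The libraries held 7141 to 9478 cells with median depths of 9834.5 to 13575 UMIs, a UMI being a tag that counts each captured transcript once. Between 5998 and 7911 cells per library were kept, and pairs of libraries shared 11 to 24 cell barcodes. Clustering, done without the 9 genes and their pathway, gave 33 clusters, of which 30 were named in 12 classes from marker genes, none of which is among the 9. Granulosa-like cells numbered 1942 in control, 1699 with doxorubicin, 1993 with doxorubicin+AMH and 2531 with AMH alone, and all 9 granulosa markers were detected in each library. No cluster could be named oocyte-like or luteal-like, and the 3 unnamed clusters (2.82% to 8.34% of cells per library) were left out of the class values. Levels are given in CPM, the UMIs of a gene per 1000000 UMIs of the class in that library, and are compared between libraries or classes, not between genes. In the unnamed cells the granulosa markers summed to 2344 to 3308 CPM, against 3495 to 3981 in granulosa-like cells. The unnamed cluster led by Unc5c held 433 AMH cells and 123 control cells, and 182 of the 185 cells led by Dppa3 were from doxorubicin. Whether these clusters hold granulosa cells was not tested.

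By GENCODE M21 on GRCm38, the build that corresponds to the mm10 of the submitters' processing notes, Inha lies at chr1:75507077-75510366 on the plus strand and Inhbb at chr1:119415465-119422248 on the minus strand. Inhba lies at chr13:16011851-16031621 (plus) and Fst at chr13:114452290-114458951 (minus). Fstl3 is at chr10:79777272-79782630 (plus), Acvr2a at chr2:48814109-48903269 (plus), Acvr2b at chr9:119402118-119434995 (plus), Acvr1b at chr15:101174067-101213684 (plus) and Tgfbr3 at chr5:107106570-107289629 (minus). In that annotation Inhba overlaps the antisense gene Gm48444, Fst overlaps Gm47040, Fstl3 overlaps Prss57, Acvr2a overlaps Orc4 and Acvr2b overlaps Gm47320. Whether the authors' counting used strand is not given in the sources used here, so reads of these pairs may not be fully separated.

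Both beta subunit genes, which over the whole granulosa-like class were higher in each AMH library than in its counterpart without AMH, differ in the sequence before their starts, and these windows are shown to make that difference visible. RefSeq windows of GRCm38.p6 were matched for 7 of the 9 genes, of which the Inha window starts from a RefSeq start 532 bases inside the GENCODE gene and is not shown as a promoter. The 250 bases before the start of Inhba (chr13:16011601-16011850, plus strand) and of Inhbb (chr1:119422249-119422498, minus strand) read 5′ to 3′ as follows, with CpG dinucleotides in capitals.
Inhba: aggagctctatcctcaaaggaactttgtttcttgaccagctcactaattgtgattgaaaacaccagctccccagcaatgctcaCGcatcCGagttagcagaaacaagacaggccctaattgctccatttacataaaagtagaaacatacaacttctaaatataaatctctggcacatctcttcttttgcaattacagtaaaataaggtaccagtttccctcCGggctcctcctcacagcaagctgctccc
Inhbb: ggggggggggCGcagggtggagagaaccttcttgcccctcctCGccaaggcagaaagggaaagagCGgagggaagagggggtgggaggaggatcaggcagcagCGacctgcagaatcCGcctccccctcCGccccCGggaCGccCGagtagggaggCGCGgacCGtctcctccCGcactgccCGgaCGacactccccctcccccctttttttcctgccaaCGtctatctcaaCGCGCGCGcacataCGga
The Inhba window holds 3 CpG and 43.2% G or C. The Inhbb window holds 21 CpG and 68.0% G or C, against medians of 6 CpG and 52.0% over the windows of 27025 promoters of the same length. Motifs were searched on both strands: the CRE core TGACG, the SMAD box CAGAC, the GC-rich SMAD element GGCGCC and the NR5A element AAGGTCA. None of the motifs holds another whole, but the NR5A element read on the other strand shares the letters TGAC with the CRE core. None of these letters occurs in either window, while 17.9%, 42.1%, 9.54% and 4.05% of all promoter windows hold them in that order. Of the other 5 matched windows, those of Inha, Fstl3, Acvr2a and Acvr2b hold the SMAD box, and none holds the other 3 motifs. The absence in Inhba and Inhbb says only that these letters are not in these 250 bases.

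Inha, Inhba, Inhbb and Fst were read mostly in granulosa-like cells in every library. These cells were 24.5% to 32.3% of the kept cells and held 41.5% to 51.8% of the kept UMIs. They carried 89.5% of all Inha UMIs in control, 89.9% with doxorubicin, 94.5% with doxorubicin+AMH and 93.4% with AMH alone. Their share of Inhba UMIs was 92.2% to 95.4%, of Inhbb UMIs 94.5% to 95.6% and of Fst UMIs 94.99% to 96.7%. The other 5 genes were spread more widely. Granulosa-like cells held 43.4% to 51.8% of Acvr2a UMIs, 58.5% to 63.0% of Acvr2b UMIs, 33.6% to 44.2% of Acvr1b UMIs, 24.8% to 30.4% of Tgfbr3 UMIs and 19.3% to 32.6% of Fstl3 UMIs.

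**Figure D1:**
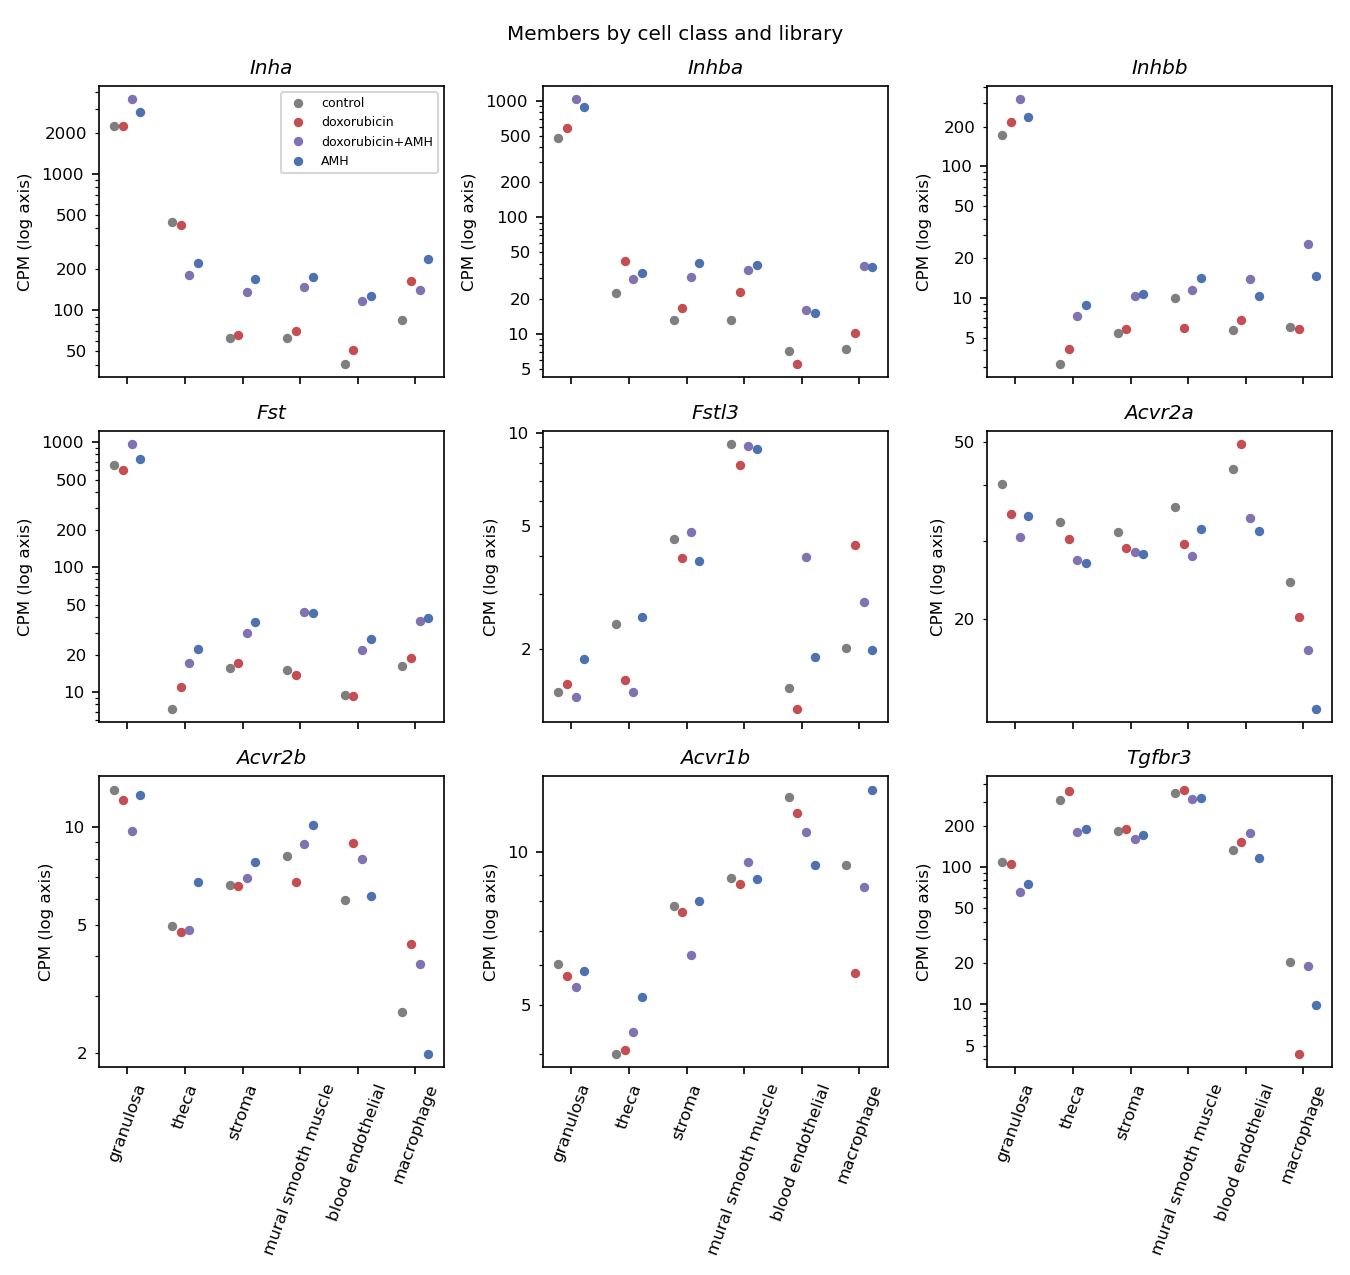
CPM of each of the 9 genes (log axis) in the 6 cell classes with at least 50 cells in every library, 1 point per library; a value of 0 is drawn at the level of 3 counts. Inha, Inhba, Inhbb and Fst stand highest in granulosa-like cells, and Tgfbr3 stands higher in mural smooth muscle-like than in granulosa-like cells in all 4 libraries.

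The inhibin alpha subunit gene Inha was higher in granulosa-like cells of both AMH libraries. Its level was 2242 CPM in control (exact Poisson interval 2230 to 2253), 2234 with doxorubicin (2222 to 2246), 3526 with doxorubicin+AMH (3511 to 3541) and 2840 with AMH alone (2828 to 2852). The libraries without AMH lay next to each other and overlapped in their intervals, and the doxorubicin+AMH library was the highest. On the scale of log2(CPM + 5), the ratio AMH / control was 0.34 (0.33 to 0.35) and doxorubicin+AMH / doxorubicin was 0.66 (0.65 to 0.67). Doxorubicin / control was -0.00 (-0.02 to 0.01), and doxorubicin+AMH / AMH was 0.31 (0.30 to 0.32).

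Inhba, the beta A subunit of inhibin A and activin A, had the largest AMH ratios of the 6 genes that averaged 20 CPM or more over all UMIs of granulosa-like cells, though for doxorubicin+AMH / doxorubicin not with equal weight per cluster, where it was 0.33. Its level was 476.9 CPM in control (472 to 482), 580 with doxorubicin (574 to 587), 1032 with doxorubicin+AMH (1024 to 1040) and 886 with AMH alone (879 to 893). Both AMH libraries lay above both others. The ratios were 0.89 (0.87 to 0.91, 1.86-fold) for AMH / control and 0.83 (0.81 to 0.84, 1.78-fold) for doxorubicin+AMH / doxorubicin. For doxorubicin they were smaller, 0.28 (0.26 to 0.30) without AMH and 0.22 (0.20 to 0.24) with it.

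Inhbb, the beta B subunit of inhibin B and activin B, had the same order of libraries. Its level was 173 CPM in control (169 to 176), 216 with doxorubicin (212 to 220), 323 with doxorubicin+AMH (318 to 327) and 236 with AMH alone (233 to 240). The AMH and doxorubicin libraries lay close together, and doxorubicin+AMH stood apart at the top. Its AMH ratios were 0.44 (0.41 to 0.48) and 0.57 (0.54 to 0.60), and its doxorubicin ratios 0.31 (0.28 to 0.35) and 0.44 (0.41 to 0.47).

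Fst, which encodes follistatin, was 658 CPM in control (652 to 665), 602 with doxorubicin (596 to 608), 962 with doxorubicin+AMH (954 to 970) and 736 with AMH alone (730 to 743) in granulosa-like cells. The doxorubicin library was the lowest and doxorubicin+AMH the highest. The ratio AMH / control was 0.16 (0.14 to 0.18), against 0.67 (0.65 to 0.69) for doxorubicin+AMH / doxorubicin. Doxorubicin / control was -0.13 (-0.15 to -0.11) and doxorubicin+AMH / AMH was 0.38 (0.37 to 0.40), so the doxorubicin ratio had opposite signs without and with AMH. Fstl3, the other activin-binding protein of the set, was at 1.40 to 1.86 CPM in granulosa-like cells (85 to 138 UMIs per library) and gave no ratio above the level filter.

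**Figure D2:**
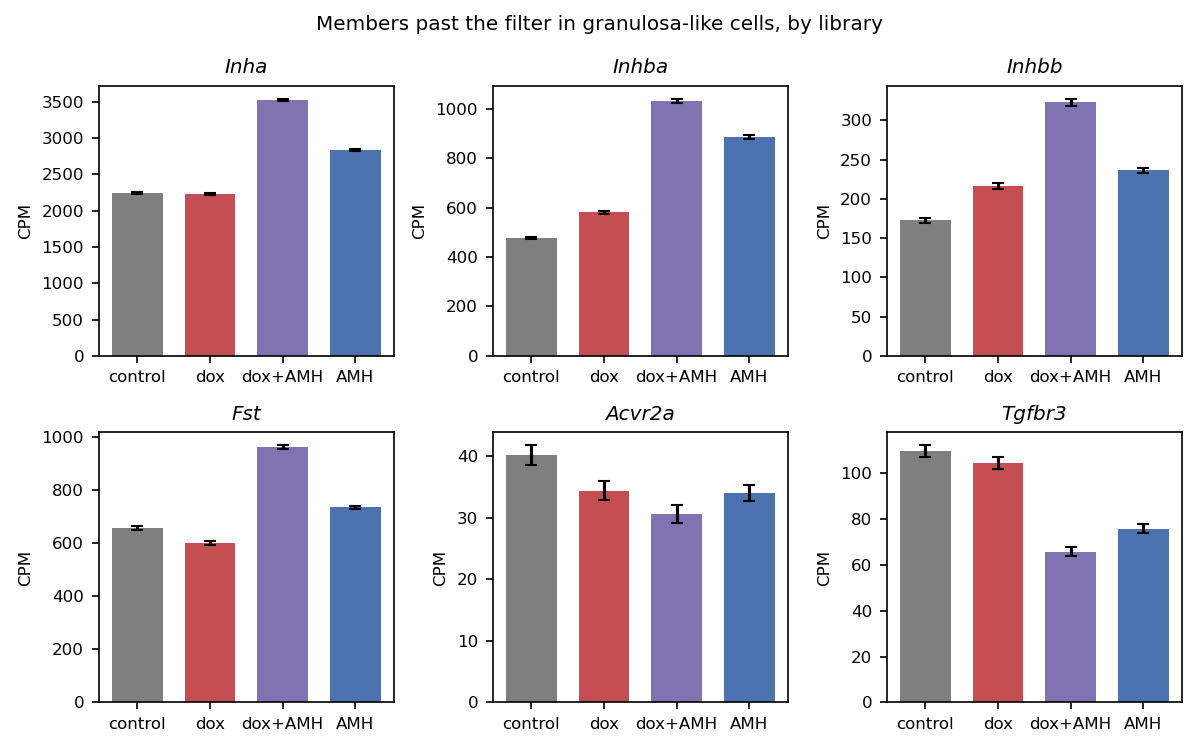
CPM in granulosa-like cells (bars, linear axes from 0) for the 6 genes that averaged 20 CPM or more, by library, with exact Poisson 95% intervals for counting error; dox stands for doxorubicin. Inha, Inhba, Inhbb and Fst are highest with doxorubicin+AMH, and Tgfbr3 is lowest there, at 65.9 CPM.

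Among the receptors, the inhibin co-receptor gene Tgfbr3 was lower in the AMH libraries. In granulosa-like cells it was 110 CPM in control (107 to 112), 104 with doxorubicin (102 to 107), 65.9 with doxorubicin+AMH (63.9 to 68.0) and 75.8 with AMH alone (73.8 to 77.8). The pair of libraries with AMH did not overlap the pair without it. The ratios were -0.51 (-0.55 to -0.46) for AMH / control and -0.63 (-0.68 to -0.57) for doxorubicin+AMH / doxorubicin, against -0.07 (-0.11 to -0.02) and -0.19 (-0.24 to -0.13) for doxorubicin.

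Acvr2a, a type II receptor for activin, was 40.2 CPM in control (38.7 to 41.8), 34.4 with doxorubicin (32.9 to 35.9), 30.6 with doxorubicin+AMH (29.2 to 32.0) and 34.1 with AMH alone (32.8 to 35.4). Control was the highest of the 4, and all ratios lay between -0.21 and -0.13. Acvr2b, the other type II receptor, was at 9.75 to 13.1 CPM, and Acvr1b, the type I receptor, at 5.43 to 6.01 CPM in granulosa-like cells. The 4 Acvr1b intervals, from 4.86 to 6.64 CPM over all libraries, overlapped, so no difference was detectable at this depth.

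A gene was counted as called when its log2 ratio was at least 0.5 in either direction, and its CPM averaged 20 or more across the libraries. Of the 9 genes, 6 passed this level filter in granulosa-like cells. For AMH / control, 2 of these 6 were called (Inhba higher, Tgfbr3 lower), beside 3.63% of all 6608 genes. For doxorubicin+AMH / doxorubicin, 5 of 6 were called (Inha, Inhba, Inhbb and Fst higher, Tgfbr3 lower), beside 4.37% of all genes. With equal weight per cluster none of these 5 calls remained. The Tgfbr3 ratio of AMH / control lay at the limit: it was -0.48 with doublets kept, -0.49 without the clusters held to over 90% by 1 library, -0.46 with equal weight per cluster and -0.39 with median-of-ratios scaling. Under the latter the median over all genes went from -0.06 to 0.05 and Inhbb to 0.56, so 2 genes were called there too, but Inhbb stood in place of Tgfbr3. For doxorubicin / control and doxorubicin+AMH / AMH none of the 6 was called, beside 0.333% and 1.18% of all genes. The median ratio of the 6 was 0.25 and 0.61 in the AMH contrasts and -0.04 and 0.27 in the doxorubicin contrasts, against -0.06, -0.03, -0.02 and 0.00 over all genes.

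**Figure D3:**
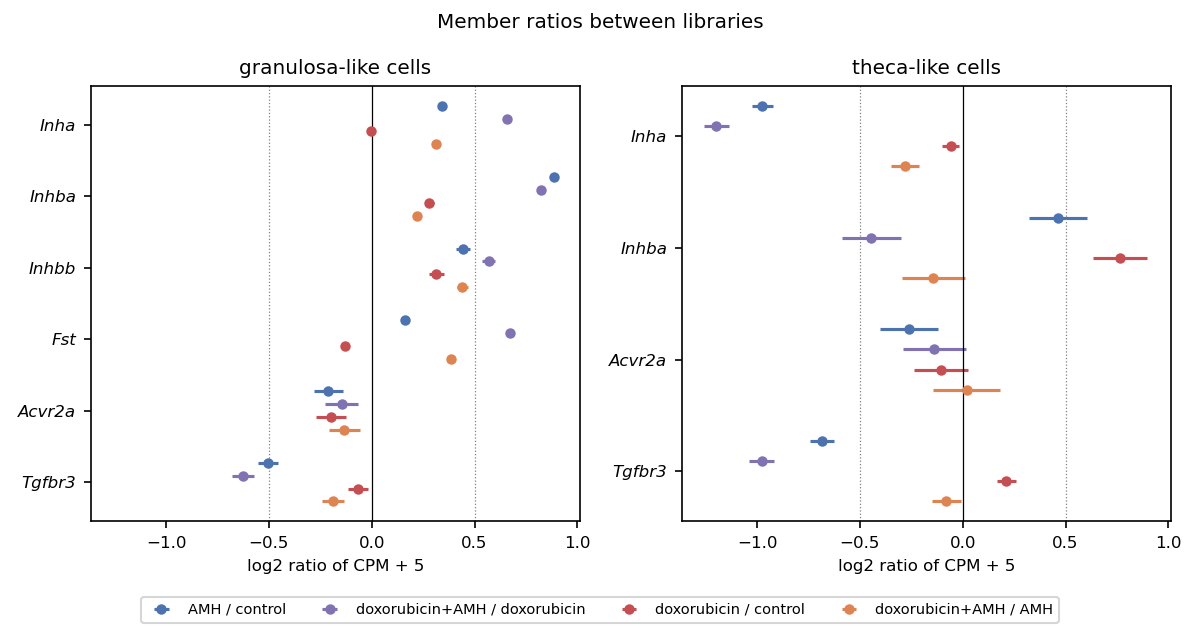
Log2 ratios of CPM + 5 between libraries for the genes past the level filter, in granulosa-like (left) and theca-like (right) cells, with 95% counting intervals; dotted lines mark -0.5 and 0.5. Inha lies to the right of 0 in both AMH contrasts in the left panel, at 0.34 and 0.66, and to the left of it in the theca-like panel, at -0.97 and -1.20.

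The granulosa-like class was made of 5 clusters found in all libraries and 2 found almost wholly in 1, and the 9 genes differed among them. Clusters are called by their leading gene. The cluster led by Inhba, next to Nppc (the C-type natriuretic peptide), Hsd17b1 and Cyp19a1 (enzymes of oestradiol synthesis), held 18.02% of granulosa-like cells in control, 18.9% with doxorubicin, 25.9% with doxorubicin+AMH and 23.0% with AMH alone. It carried 49.2% to 58.4% of the Inhba UMIs of the class. The cycling cluster led by Ube2c and Top2a held 19.6%, 17.5%, 26.9% and 18.8% of the cells in the same order and 45.5% to 58.2% of the Inhbb UMIs. The cluster led by Cdh12 held 17.7% and 16.8% of the cells without AMH and 7.63% and 8.61% with it. Of the clusters almost wholly of 1 library, the one led by Chchd10 had 122 AMH cells and the one led by Amh had 78 doxorubicin cells.

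Within clusters, Inhba differed between libraries to an unequal degree. In the cycling Ube2c cluster it was 599 CPM in control, 665 with doxorubicin, 1147 with doxorubicin+AMH and 1207 with AMH alone, with AMH ratios of 1.00 (0.97 to 1.04) and 0.78 (0.75 to 0.82). In the Inhba-led cluster it was 1819, 2286, 2641 and 2416 CPM in that order, with AMH ratios of 0.41 (0.38 to 0.44) and 0.21 (0.18 to 0.23). In the cluster led by Slc38a5 it was 365, 381, 378 and 376 CPM, and all 4 intervals of the ratios contained 0. The AMH ratio of Inhba thus ranged from near 0 to 1.00 among these 3 clusters, a difference that was not tested.

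In the clusters led by Fgd5 and Cdh12, Inhba was low in every library, at 30.6 to 83.2 CPM and 31.4 to 75.4 CPM. Its AMH ratios there, 1.31 and 0.69 (Fgd5) and 1.14 and 0.61 (Cdh12), stand beside those of stroma-like cells, which had 13.2, 16.6, 30.5 and 40.3 CPM in the same order of libraries. The part of free RNA in these low levels was not tested.

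The other genes also varied among the 5 clusters. Inhbb was higher with AMH in the Ube2c cluster (291, 365, 479 and 442 CPM, libraries ordered as control, doxorubicin, doxorubicin+AMH, AMH) and lower with AMH in the Slc38a5 cluster (199, 231, 176 and 160 CPM). In the Cdh12 cluster Inhbb was 59.2 and 80.7 CPM without AMH and 51.4 and 34.0 with it. Inha had AMH ratios between 0.09 and 0.63 in 4 clusters, while in the Cdh12 cluster they were -0.25 (-0.30 to -0.21) and 0.10 (0.05 to 0.14). Fst in the Cdh12 cluster was 270 CPM in control, 240 with doxorubicin, 322 with doxorubicin+AMH and 156 with AMH alone, so that the AMH library was the lowest. Tgfbr3 was lower with AMH in all 5 clusters in both contrasts, from 179 and 179 CPM to 116 and 112 in the Fgd5 cluster (control, doxorubicin, doxorubicin+AMH, AMH) and from 78.0 and 79.3 to 46.1 and 48.8 in the Inhba-led cluster.

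**Figure D4:**
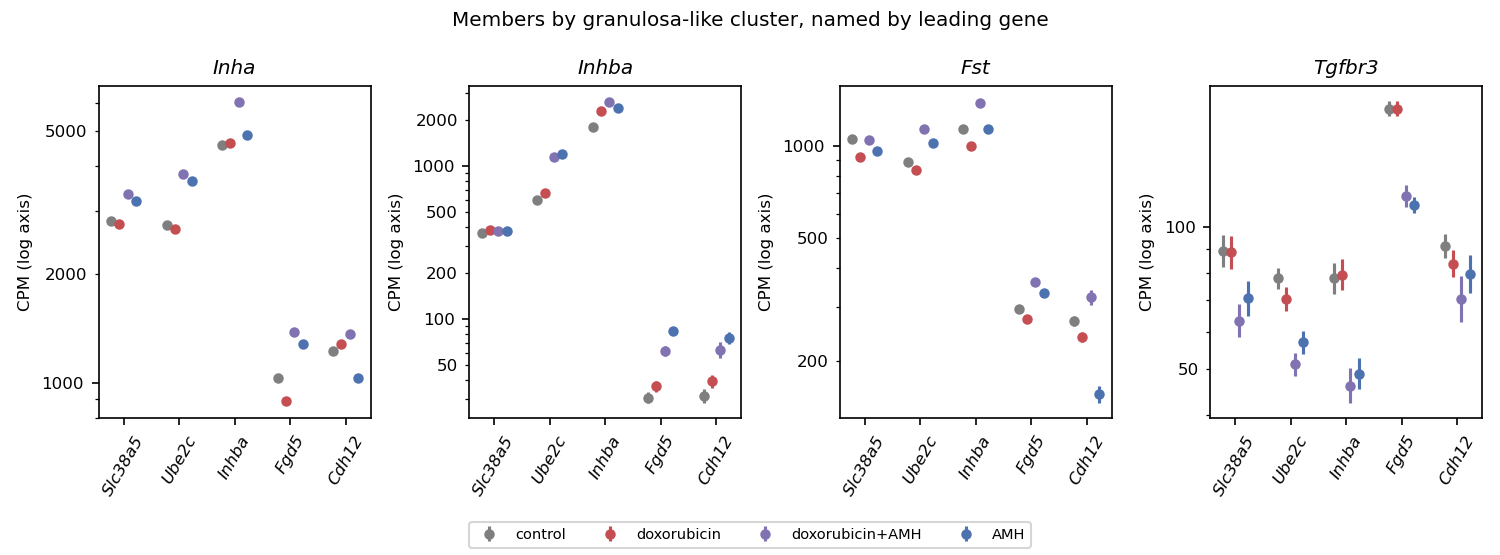
CPM (log axis) of Inha, Inhba, Fst and Tgfbr3 in the 5 granulosa-like clusters found in all libraries, 1 point per library with exact Poisson 95% intervals. Inhba is between 365 and 381 CPM in all libraries of the Slc38a5 cluster and from 599 to 1207 CPM in the Ube2c cluster, and Tgfbr3 is lower with AMH in each cluster.

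Since the libraries differed in their mix of clusters, the granulosa-like values were also averaged with equal weight over the 5 clusters. The doxorubicin+AMH / doxorubicin ratio was then 0.38 for Inha, 0.33 for Inhba, 0.09 for Inhbb, 0.37 for Fst and -0.497 for Tgfbr3, and none of the 5 passed 0.5 in size. For AMH / control it was 0.18 for Inha, 0.54 for Inhba, 0.19 for Inhbb, -0.01 for Fst and -0.46 for Tgfbr3, and Inhba alone passed. At an equal mix of clusters these 10 ratios were thus all smaller in size than over the whole class.

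To set the subunits side by side in the same cells, each granulosa-like cell was thinned to 2000 UMIs, which left out 19, 20, 36 and 47 shallower cells (libraries ordered as control, doxorubicin, doxorubicin+AMH, AMH). Inha was then seen in 87.7%, 87.3%, 94.0% and 91.4% of cells (98.4%, 98.7%, 99.0% and 98.4% before thinning). Inhba was seen in 28.6% (exact Clopper-Pearson interval 26.6% to 30.7%), 30.0% (27.8% to 32.3%), 46.9% (44.7% to 49.1%) and 45.7% (43.7% to 47.7%), against 52.8%, 54.9%, 74.0% and 74.8% before thinning. In stroma-like cells, which served as the background class, the thinned Inhba share was 2.90%, 3.45%, 6.09% and 7.61%. Median depths were 24136.5, 25882, 23519 and 19601 UMIs in granulosa-like cells, while those of stroma-like cells were 8875, 11634, 8964 and 7930.5. Both AMH libraries lay above both others in the share of granulosa-like cells with an Inhba UMI.

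Cells with UMIs of both beta subunits, the state in which Inhba and Inhbb were read together, made up 13.6% of thinned granulosa-like cells in control (12.1% to 15.2%), 17.3% with doxorubicin (15.6% to 19.2%), 26.1% with doxorubicin+AMH (24.2% to 28.1%) and 20.5% with AMH alone (18.9% to 22.1%). Cells with neither were 65.3%, 62.8%, 48.1% and 49.6% in the same order. Inhba alone was read in 14.98%, 12.7%, 20.8% and 25.2% of cells, and Inhbb alone in 6.08%, 7.15%, 4.96% and 4.67%. The Inhba-only share was highest with AMH alone and the both-subunit share with doxorubicin+AMH. A UMI of Inhbb was seen in 47.6%, 57.7%, 55.7% and 44.8% of Inhba-positive cells, and in 8.52%, 10.2%, 9.34% and 8.60% of Inhba-negative ones.

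Over the whole class, the alpha subunit was read more often in cells with beta subunits. At 2000 UMIs, 99.3% to 100% of cells with both beta subunits had an Inha UMI, against 81.7% to 89.2% of cells with neither. The mean number of Inha UMIs was 10.5, 9.96, 12.2 and 10.6 in cells with both beta subunits and 3.11, 3.03, 4.46 and 3.66 in cells with neither (control, doxorubicin, doxorubicin+AMH, AMH). In the 3 clusters with the higher Inhba levels, Inha and Inhba were seen together at close to the product of their shares: in control this was 74.4% against 74.5% in the Inhba-led cluster, 34.4% against 33.96% in the Slc38a5 cluster and 41.3% against 40.2% in the Ube2c cluster. Nearly all control cells of these clusters had an Inha UMI, so both values must lie close to the share of Inhba alone. They therefore cannot show whether Inha and Inhba go together within a cluster. Fst was seen in 79.1%, 77.4%, 84.0% and 75.2% of Inhba-positive cells and in 44.7%, 38.5%, 57.7% and 48.9% of Inhba-negative cells (control, doxorubicin, doxorubicin+AMH, AMH). These shares mix clusters that differ in both genes, and within clusters the gap was smaller in part. In the Inhba-led cluster Fst was seen in 79.6%, 77.6%, 84.4% and 81.2% of Inhba-positive cells and in 78.4%, 48.4%, 63.9% and 66.3% of Inhba-negative ones. In the Slc38a5 cluster the shares were 86.5%, 86.1%, 83.8% and 76.6% against 77.1%, 73.3%, 80.1% and 79.6%, so with AMH alone the Inhba-negative cells had the higher share. Acvr2a and Acvr1b, the pair of receptors that activin joins, were read together in 1 or 2 cells per library, which is too few to compare.

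**Figure D5:**
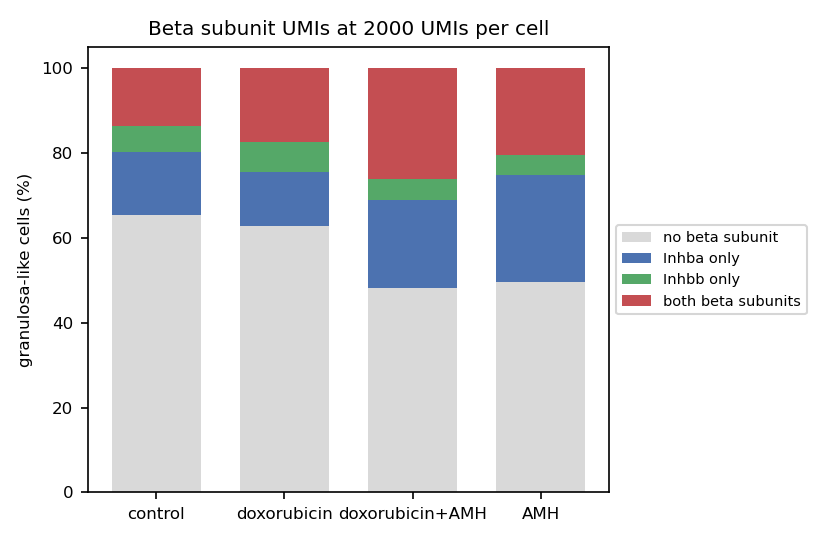
Granulosa-like cells (percent, stacked bars) by the beta subunit UMIs they hold after thinning to 2000 UMIs, for each library. The share with neither subunit is 65.3% and 62.8% without AMH and 48.1% and 49.6% with it.

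In theca-like cells, the androgen-producing layer around the follicle, Inha and Tgfbr3 were lower in the AMH libraries, and different clusters held the class there. Inha was 442 CPM in control (434 to 450), 424 with doxorubicin (415 to 433), 182 with doxorubicin+AMH (176 to 189) and 223 with AMH alone (216 to 230). Tgfbr3 was 309, 359, 180 and 190 CPM in the same order. Inha ratios were -0.97 (-1.03 to -0.92) for AMH / control and -1.20 (-1.26 to -1.14) for doxorubicin+AMH / doxorubicin, and Tgfbr3 ratios were -0.68 (-0.74 to -0.63) and -0.98 (-1.04 to -0.92). In each AMH contrast, 2 of the 4 genes past the filter were called, beside 17.9% and 17.4% of all 6262 genes. For doxorubicin / control 1 of 4 was called, Inhba, beside 0.767% of all genes, and for doxorubicin+AMH / AMH none, beside 1.21%.

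The theca-like cluster led by Cyp17a1, the androgen-forming enzyme, held 78.0% and 69.9% of the class without AMH but 6.28% and 5.45% with it, where the cluster led by Prss35 held 75.0% and 80.2%. The summed level of the 7 theca markers was 14757 and 14240 CPM without AMH and 5680 and 4770 with it. The 7 stroma markers moved the other way in theca-like cells, from 808 and 863 CPM to 1521 and 1346, and the 5 erythroid markers were at 96.0, 28.9, 700.4 and 8.40 CPM (control, doxorubicin, doxorubicin+AMH, AMH). The part of these markers' cells in the theca-like values was not tested. Within the Cyp17a1 cluster Inha was 512 CPM in control, 506 with doxorubicin, 386 with doxorubicin+AMH (47 cells) and 326 with AMH alone (49 cells). In the cluster led by Sct, the only one with at least 50 cells in every library, Inha was 89.8, 101, 140 and 208 CPM, so there the AMH ratios were 1.17 (1.00 to 1.34) and 0.45 (0.27 to 0.63). These cluster values were not tested against each other, and in stroma-like cells, too, Inha was higher in the AMH libraries, at 63.0, 65.6, 136 and 170 CPM. Tgfbr3 in the Sct cluster was 147, 219, 138 and 139 CPM, with AMH ratios of -0.07 (-0.24 to 0.09) and -0.65 (-0.80 to -0.50).

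Inhba in theca-like cells was 22.6 CPM in control (20.8 to 24.5), 41.8 with doxorubicin (39.0 to 44.8), 29.4 with doxorubicin+AMH (26.8 to 32.2) and 33.0 with AMH alone (30.4 to 35.8). The doxorubicin library was the highest, at 0.76 (0.63 to 0.89) above control, and within the Cyp17a1 cluster this ratio was 0.71 (0.57 to 0.86). These levels were 4.74%, 7.20%, 2.85% and 3.73% of those in granulosa-like cells. Acvr2a in theca-like cells was 33.0, 30.4, 27.1 and 26.7 CPM.

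Inha was also read at low levels in stroma-like, mural smooth muscle-like and blood endothelial-like cells, at 1.81% to 6.17% of the granulosa-like level of the same library, and there the CPM of both AMH libraries lay above both others. In stroma-like cells Fst was 15.8, 17.2, 29.6 and 36.4 CPM (libraries ordered as control, doxorubicin, doxorubicin+AMH, AMH), next to the Inha levels given above. Inha was called higher there in both AMH contrasts, beside 1.69% and 1.77% of all 6685 genes. The ratios of Inhba and Fst were past 0.5 too, but both genes were under 20 CPM in both libraries without AMH and passed the filter only through the libraries where they were high, so these calls are not counted. None of the 9 genes was called in the doxorubicin contrasts, beside 0.658% and 0.868%. As a percent of the granulosa-like level of the same library, Inha, Inhba, Inhbb and Fst of stroma-like cells were at 2.81%, 2.78%, 3.15% and 2.39% in control and at 5.98%, 4.55%, 4.51% and 4.94% with AMH alone. In the libraries with AMH the percentages of Inha and Inhba differed beyond their counting intervals. With AMH alone Inha was at 5.80% to 6.17% and Inhba at 4.26% to 4.85%, and with doxorubicin+AMH Inha was at 3.72% to 3.97% and Inhba at 2.75% to 3.17%. Without AMH these intervals overlapped, at 2.69% to 2.93% and 2.53% to 3.05% in control and at 2.81% to 3.07% and 2.61% to 3.11% with doxorubicin. With AMH alone the intervals of Inhba, Inhbb and Fst overlapped as well. In the same stroma-like cells the summed level of the 9 granulosa markers was 430, 459, 524 and 509 CPM, and that of the 7 mural smooth muscle markers 677, 593, 1090.1 and 945 CPM. In granulosa-like cells the 9 granulosa markers summed to 3738, 3519, 3981 and 3495 CPM. Not all of the 9 are particular to granulosa-like cells. Foxl2 was 108, 114, 107 and 95.7 CPM in stroma-like cells, against 89.4, 99.2, 62.8 and 68.8 in granulosa-like cells.

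Mural smooth muscle-like cells had 62.3, 70.2, 149 and 175 CPM of Inha, and blood endothelial-like cells 40.6, 51.5, 117 and 126 CPM, in the same order of libraries. In the mural smooth muscle-like cells the granulosa markers summed to 447, 464, 590.4 and 535 CPM, and in the endothelial cells to 235, 212, 267 and 338 CPM, and in the AMH library markers of other classes were high as well: macrophage markers at 225 CPM against 17.9 to 22.7 elsewhere, erythroid markers at 428 against 15.2 to 16.9 and stroma markers at 636 against 181 to 222. Erythroid-like cells, which should lack the gene, had 66.1, 116, 855 and 328 CPM of Inha (59, 59, 71 and 39 cells). This was 2.95%, 5.20%, 24.2% and 11.5% of the granulosa-like level, and the 9 granulosa markers summed to 138, 178, 694 and 244 CPM in the same erythroid-like cells, highest in the library where Inha was highest. Macrophage-like cells had 84.7, 165, 140 and 236 CPM of Inha, so there the doxorubicin+AMH library lay below the doxorubicin library, with granulosa markers at 128, 145, 253 and 253 CPM. Theca-like Inha was at 19.7% and 19.0% of the granulosa-like level without AMH and at 5.17% and 7.84% with it, while theca-like Fst was at 1.12% to 2.99%. The part of free RNA and of these other cells in the levels was not tested.

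Tgfbr3, Fstl3, Acvr2a and Acvr1b had higher levels in some other class than in granulosa-like cells. Tgfbr3 was 348, 367, 313 and 320 CPM in mural smooth muscle-like cells, while stroma-like cells had 185, 191, 161 and 172 CPM (control, doxorubicin, doxorubicin+AMH, AMH), and at 4.34 to 20.2 CPM in macrophage-like cells. Fstl3 was 9.18, 7.88, 9.04 and 8.86 CPM in mural smooth muscle-like cells, above its granulosa-like level in each library. Acvr1b was 34.5 CPM in control (28.6 to 41.2), 49.9 with doxorubicin+AMH (32.6 to 73.1) and 26.7 with AMH alone (22.8 to 31.2) in oviduct epithelial-like cells, of which the doxorubicin library held 1. Acvr2a was 98.7, 71.7, 102 and 104 CPM in lymphatic endothelial-like cells (77, 39, 43 and 51 cells), above every other named class in the same library. Acvr2b was 16.9, 10.7, 16.6 and 14.97 CPM in surface epithelial-like cells and 13.1, 12.1, 9.75 and 12.5 in granulosa-like cells, and these classes overlapped in their intervals in all 4 libraries.

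The rest of the pathway was read through 45 further genes: 9 ligands, 8 receptors, 8 binding proteins, 12 intracellular mediators and 8 target or follicle genes. In granulosa-like cells 25 of the 45 passed the level filter, and 3 were called for AMH / control, 4 for doxorubicin+AMH / doxorubicin and none in the doxorubicin contrasts, beside the same shares of all genes given above. Those called in both AMH contrasts were Smad3 and Smad7. Smad3, which carries the activin signal to the nucleus, was 63.5 CPM in control, 59.1 with doxorubicin, 35.7 with doxorubicin+AMH and 37.9 with AMH alone, with ratios of -0.68 and -0.66. Smad7, an inhibitory SMAD, was 89.4, 94.1, 146 and 141 CPM, with ratios of 0.63 and 0.61. For both genes the libraries with and without AMH did not overlap.

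The other called pathway genes of granulosa-like cells were Nr5a2, a nuclear receptor of the follicle, at -0.58 for AMH / control, and Foxl2 and Gata4, transcription factors of granulosa cells, at -0.62 and -0.63 for doxorubicin+AMH / doxorubicin. Of the 12 mediators, all passed the filter and 10 were not called in any contrast, Smad2 and Smad4 among them with AMH ratios from -0.11 to -0.05. The receptors of related ligands gave no call in 5 of 5 past the filter. The type I BMP receptor gene Bmpr1b, for example, was 1266, 1085, 1092 and 1157 CPM. Bambi, a decoy receptor, was below the filter in granulosa-like cells. Its level in theca-like cells was 29.1, 31.4, 76.5 and 78.4 CPM, with AMH ratios of 1.29 and 1.16. Smad7 in theca-like cells was 14.6, 13.2, 52.8 and 59.95 CPM, with ratios of 1.73 and 1.67, and it passed the filter only through the libraries with AMH. Leaving Smad7 out for that reason, 2 pathway genes were called in theca-like cells for AMH / control (Bambi and Bmpr1b), beside 17.9% of all genes. For doxorubicin+AMH / doxorubicin 4 were called (Bambi, Ski, Tgif1 and Lhcgr), beside 17.4%. In the doxorubicin contrasts none was called, beside 0.767% and 1.21%. With Smad7, 22 of the 45 pathway genes passed the filter in theca-like cells. The shares of all genes were not cleared of genes that passed as Smad7 did, so the 2 are counted under unlike rules. In stroma-like cells 29 passed, with Ltbp1, which binds latent TGF-beta, called for doxorubicin+AMH / doxorubicin and for doxorubicin+AMH / AMH, at -0.70 in each, beside 1.77% and 0.868% of all genes.

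Over 97 profiles of clusters in single libraries with at least 50 cells, the gene most like Inha by Pearson's r was Hsd17b1 (0.95), followed by Fst (0.94). Inhba was most like Nap1l5 (0.93) and Inhbb (0.93), and Fst was most like Apoa4 (0.95) and Cnmd (0.95). Among the receptors, Acvr2a was most like Dlg1 (0.87) and Tgfbr3 most like Pard3b (0.88). The 4 granulosa-read genes correlated with each other at 0.87 to 0.94, and each with Tgfbr3 at -0.28 to -0.19. These profiles share libraries and cell classes, so the values describe where the genes are read.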

How the data were processed

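The deposited matrices are raw UMI counts of genes by barcodes, and per the file headers Cell Ranger 7.0.0 wrote them; the submitters' processing notes name mm10, R 4.2.0 and Seurat 4.1.0. Whether intronic reads were counted is not given in the sources used here. The 9 genes, the pathway lists, the markers and the rules were chosen with earlier results of these data known.

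Cells needed 1000 or more UMIs, no more than 20% of them mitochondrial. Scrublet (scanpy 1.11.5) marked 0 cells by its automatic threshold, so the highest scores were removed at 0.8% per 1000 cells (677, 408, 489 and 719 cells for control, doxorubicin, doxorubicin+AMH, AMH). Clustering used 2000 variable genes without the 9 genes and their pathway, 30 components (scikit-learn 1.9.0), 20 neighbours and Leiden resolution 1.0 (leidenalg 0.10.2, igraph 0.11.9). A cluster was named "X-like" when at least 3 markers and 50% of a list lay 1 log2 unit above the median cluster and in 10% of its cells; this 50% was set after values were seen. A cluster stayed unnamed when another class had more markers among its top 10 genes, or at under 33.3% of the library's median UMIs with no marker there. Counts were summed per class and library and scaled to CPM. Ratios use a pseudocount of 5 CPM, genes a mean of at least 20 CPM, and calls an absolute log2 ratio of at least 0.5. Intervals are 95%: exact Poisson for levels and Clopper-Pearson for shares (scipy 1.17.1). For ratios, Clopper-Pearson bounds of the share of 1 count in the sum of both were put on the log2(CPM + 5) scale. They therefore bound the ratio with the pseudocount, not the fold. Ratios, calls and thinning were tested on simulated data. Coverage was tested there only for an interval without the pseudocount, not for the form given here. A value of 0 allows up to 3 counts.

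Named genes were the 9 genes, pathway genes with both ratios of a pair of at least 0.5 and of the same sign in granulosa-, theca- or stroma-like cells, and the 3 genes most like each of the 9; the text gives the first 1 or 2 of these. Nr5a2, Foxl2, Gata4, Smad2, Smad4, Bmpr1b, Ski, Tgif1, Lhcgr and Ltbp1 were named after their values were seen. AMH / control and doxorubicin+AMH / doxorubicin share no library, nor do doxorubicin / control and doxorubicin+AMH / AMH; other pairs of contrasts share libraries.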

Additional observations from a re-analysis of the deposited data

Results flagged for a closer look

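Inha had opposite signs of the AMH ratio in granulosa-like and theca-like cells. Without and with doxorubicin, it was 0.34 and 0.66 among granulosa-like cells, against -0.97 and -1.20 among theca-like cells. The difference was not tested, and different theca-like clusters held the class in these libraries. The theca markers summed to 14757, 14240, 5680 and 4770 CPM (control, doxorubicin, doxorubicin+AMH, AMH), and their part in the difference was not tested. With equal weight per cluster, where only the Sct cluster had enough cells, the theca-like ratios were 1.17 and 0.45, so the opposite signs were lost.

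Other ratios had opposite signs without and with the other agent, with both counting intervals clear of 0; none of these differences was tested, since each group has 1 library. In granulosa-like cells the doxorubicin ratio of Fst was -0.13 without AMH and 0.38 with it. In theca-like cells the AMH ratio of Inhba was 0.46 without doxorubicin and -0.44 with it. The latter was 0.019 with doublets kept and 0.049 with equal weight per cluster, so the opposite signs were lost under these alternatives. The doxorubicin ratio of Tgfbr3 in theca-like cells was 0.21 without AMH and -0.081 with it. In stroma-like cells the doxorubicin ratio of Inhba was 0.24 and -0.35, at 2.78%, 2.85%, 2.95% and 4.55% of the granulosa-like level of the libraries. Inhba there was under 20 CPM in both libraries without AMH. It passed the level filter only through the libraries with AMH, so this sign change is not counted. For Inha the doxorubicin ratios were 0.92 and -0.74 in macrophage-like cells and 0.16 and -0.23 in mural smooth muscle-like cells. Inha in macrophage-like cells was at 3.78%, 7.38%, 3.97% and 8.33% of the granulosa-like level (libraries ordered as above), and rested on 126, 114, 148 and 357 UMIs.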

How the results depend on the processing

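No paired analysis was possible because each group has 1 library, and no replicate could be left out for the same reason. Of 88 recomputed counts of called genes in granulosa-like cells, 81 stayed within 1.5 times of the reported count. In both doxorubicin contrasts the reported counts were 0, and a count can stay while the genes behind it change. The count of the 9 genes called for AMH / control was 1 in place of 2 with doublets kept, with equal weight per cluster and without clusters held by 1 library (an alternative chosen after seeing the data). With median-of-ratios scaling it stayed at 2 with Inhbb (0.56) in place of Tgfbr3 (-0.39). For doxorubicin+AMH / doxorubicin it was 0 in place of 5 with equal weight per cluster. Pathway genes called for AMH / control numbered 5 with a pseudocount of 1 CPM and 6 with equal weight per cluster, in place of 3, and for doxorubicin+AMH / AMH 1 in place of 0 with each cell weighted equally. The cause of these shifts was not tested, beyond the change of cluster weights itself.

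Of 424 recomputed log2 ratios, 321 stayed within the counting interval, 101 moved and 2 reversed, which means that a ratio of at least 0.5 in size changed sign. The alternative without the level filter leaves each of the 40 ratios unchanged by construction, so its values all count among those that stayed. Of the 40 ratios, 10 changed sign under at least 1 alternative, 8 of them with a reported size under 0.5, such as Fst in granulosa-like cells for AMH / control (-0.01 to 0.28), and in theca-like cells Inhba for doxorubicin+AMH / doxorubicin (-0.50 to 0.05) and Acvr2a for AMH / control (-0.36 to 0.20). The reversed values are Inha in theca-like cells with equal weight per cluster, at 1.17 (AMH / control) and 0.45 (the ratio with doxorubicin in both libraries), where only the Sct cluster had enough cells in every library. In granulosa-like cells the AMH / control ratio of Inhba ranged from 0.54 to 1.01 and doxorubicin+AMH / doxorubicin from 0.33 to 0.92; Tgfbr3 ranged from -0.57 to -0.39 and from -0.66 to -0.50. Of 352 recomputed CPM levels in granulosa-like and theca-like cells, 218 stayed within their Poisson interval and 134 moved. Of 112 recomputed shares of cells, 62 moved, mostly with the thinning depth. Counting error is small for Inha, Inhba, Inhbb and Fst and limits Fstl3, Acvr2b and Acvr1b, and the spread between animals was not measured.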
